A study of Mus musculus with 7 samples.

Results

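The genes described here are the G1 cyclins, their kinases and the Cip/Kip inhibitors: Ccnd1, Ccnd2 and Ccnd3, Ccne1 and Ccne2, Cdk4 and Cdk6, and Cdkn1a, Cdkn1b and Cdkn1c. They were taken from the table by name, and all 10 were found among the 24353 genes of the table, where symbols stand in capitals (CCND1, CCND2, CCND3, CCNE1, CCNE2, CDK4, CDK6, CDKN1A, CDKN1B and CDKN1C). The RNA was that of endometrial epithelial cells from female C57BL/6 mice whose ovaries had been removed at an age of 6 to 7 weeks. Mice given tamoxifen plus alpelisib (the combination, 2 libraries) received 0.5 mg tamoxifen per day under the skin with 30 mg/kg alpelisib per day by mouth, and mice given tamoxifen (2 libraries) received the same tamoxifen dose alone. Mice given estradiol (2 libraries) carried a slow-release pellet of 0.01 mg, and vehicle mice (1 library) received the vehicle. Libraries are numbered by mouse as in the labels. Each treatment ran for 28 days. The combination, tamoxifen and vehicle arms came from 18 randomized mice, 6 per arm, while the 2 estradiol mice were a separate set. No group had ovaries, so the vehicle library stands for estrogen deprivation, and the sources used here do not say whether it holds 1 mouse or several. Tamoxifen is a modulator of the estrogen receptor and a partial agonist in uterine tissue. Alpelisib is an inhibitor of PI3K alpha, a lipid kinase of growth factor signalling.

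D-type cyclins switch on the kinases CDK4 and CDK6 early in G1, and cyclin E switches on CDK2 near the end of it. Both kinase pairs phosphorylate the retinoblastoma protein, which frees E2F factors to turn on the genes for DNA synthesis, cyclin E among them. The Cip/Kip proteins p21 (Cdkn1a), p27 (Cdkn1b) and p57 (Cdkn1c) bind cyclin and kinase together, block CDK2 complexes and help to assemble those of cyclin D. In the uterine epithelium estrogen drives cells from rest through G1 into DNA synthesis.

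Values are FPKM (fragments per kilobase of transcript and per M fragments of the library), so levels of different genes can be set side by side. Means are given ± SD of 2 libraries, and the vehicle value has no SD. Changes are log2 fold changes of FPKM + 1 ± SE from limma, which understates the change of genes with low values. P values are adjusted over the 12314 genes tested within each of the 6 comparisons, and a gene is called at an adjusted p under 0.05. All 10 genes passed the filter of at least 1 FPKM in at least 1 library. Ccne1 and Ccne2 passed it only through the estradiol libraries, so the group where they are high let them be tested. Their calls in the comparisons that involve estradiol were kept with no filter. Depth was not given in the sources used here. It was estimated from genes with 1 transcript, by taking low values as 1 fragment, within a range of depths fixed beforehand. Every estimate had to fall in that range, so it is rough. It came to 15.8 to 18.3 M fragments in 6 libraries. Estradiol 2, with 22 genes in that range against 136 to 178 elsewhere, has no firm estimate. Ribosomal RNA precursor (Rn45s) had 2276 FPKM in that library and 189 to 764 FPKM in the other 6. Markers of epithelium summed to 5909 to 6392 FPKM with tamoxifen plus alpelisib, 3955 to 5464 with tamoxifen, 2642 to 3134 with estradiol and 7054 with vehicle, and none of the 10 markers was under 0.1 FPKM throughout any group. Over all genes tested, the median log2 fold change was -0.12 for tamoxifen against vehicle, 0.12 for estradiol against vehicle, -0.26 for tamoxifen against estradiol, -0.15 and -0.26 for tamoxifen plus alpelisib against vehicle and against estradiol, and -0.03 for it against tamoxifen. Median-of-ratios scaling brought each of these to between -0.02 and 0.01, and moved the share of higher genes among all calls from 38.2% to 48.3%, 64.0% to 48.7%, 25.4% to 50.5%, 37.7% to 50.1%, 29.6% to 51.2% and 59.0% to 59.8% in that order of comparisons.

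Most of these genes differed between tamoxifen and estradiol, where 12.3% of all genes tested were called higher and 36.2% lower with tamoxifen. With tamoxifen, cyclins D1 and D2 and the inhibitor p57 fell against vehicle and neither cyclin E gene passed the test. With estradiol, cyclins E1 and E2 and p27 rose, while cyclins D1 and D2 and p21 fell. Adding alpelisib to tamoxifen changed none of the 10 genes past the threshold, where 6.93% of all genes tested were called higher and 4.81% lower. Cyclin D3 stayed within a range of 19.4 to 29.6 FPKM over all 7 libraries and was called in 0 of the 6 comparisons by limma. The plot of FPKM by library shows every value.

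**Figure D1:**
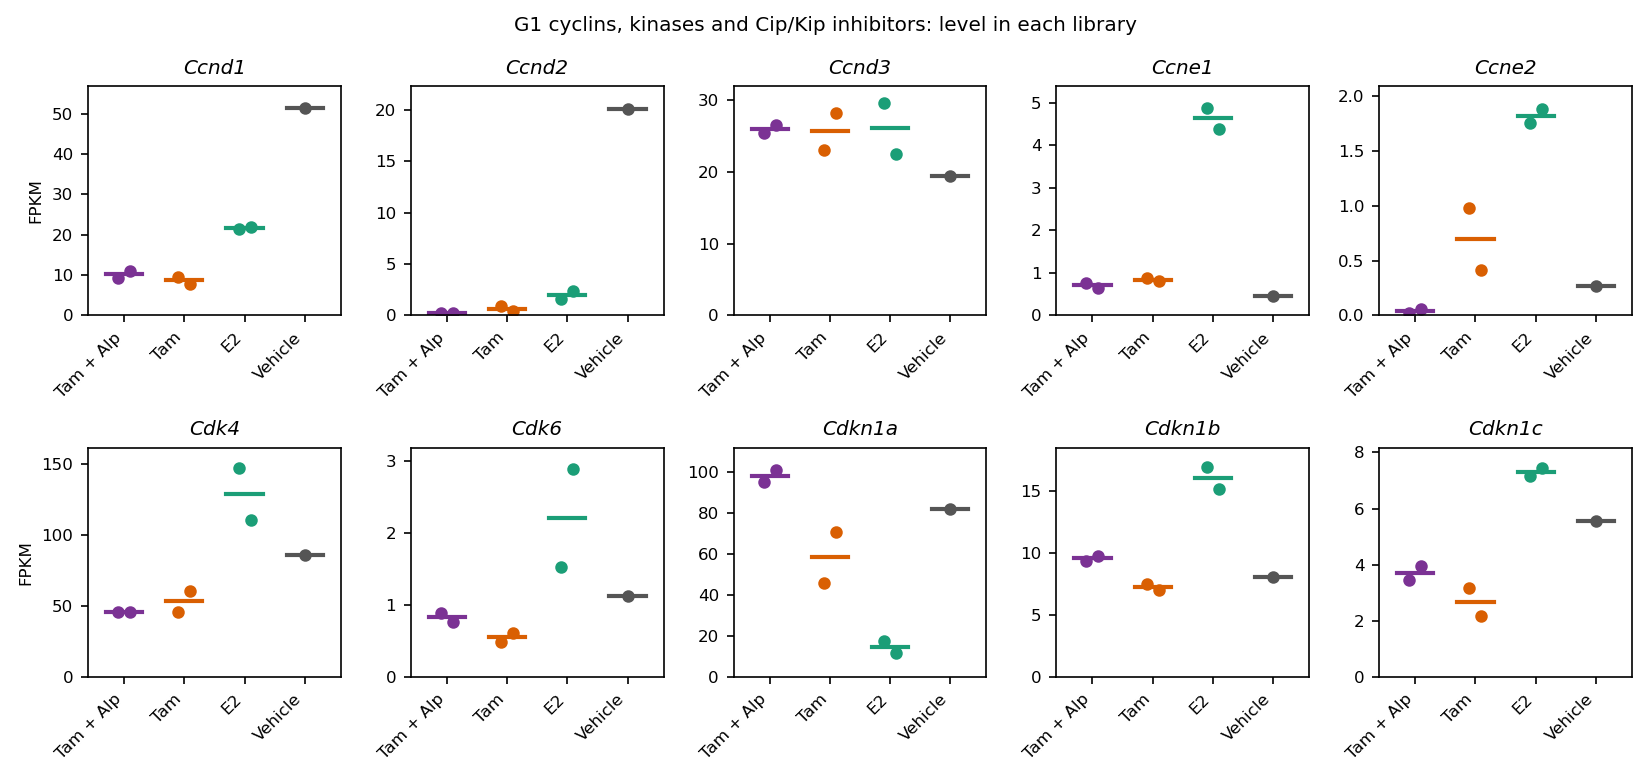
FPKM of each of the 10 genes (vertical axes, each from 0) in the libraries of tamoxifen plus alpelisib (Tam + Alp), tamoxifen (Tam), estradiol (E2) and vehicle; each point is a library and each line the group mean. Vehicle has the highest Ccnd1 (51.5) and Ccnd2 (20.1), estradiol the highest Ccne1, Ccne2, Cdk4, Cdk6, Cdkn1b and Cdkn1c and the lowest Cdkn1a.

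Ccnd1 encodes cyclin D1, the D-type cyclin best known as a target of mitogen and estrogen signals. Its level was 9.27 and 11.04 FPKM with tamoxifen plus alpelisib, 9.61 and 7.75 with tamoxifen, 21.5 and 21.9 with estradiol, and 51.5 with vehicle. The vehicle library stood above every other, both estradiol libraries above all 4 libraries with tamoxifen, and the tamoxifen groups with and without alpelisib overlapped. The mean was 8.68 ± 1.32 FPKM with tamoxifen, 5.93 times lower than with vehicle, a log2 fold change of -2.45 ± 0.19 (adjusted p = 0.000324). With estradiol it was 21.7 ± 0.284 FPKM, a log2 fold change of -1.21 ± 0.19 against vehicle (adjusted p = 0.0055). Tamoxifen libraries were also lower than estradiol ones (log2 fold change -1.24 ± 0.15, adjusted p = 0.00154). The combination averaged 10.2 ± 1.25 FPKM, and its log2 fold change was -2.24 ± 0.19 against vehicle (adjusted p = 0.000518) and -1.03 ± 0.15 against estradiol (adjusted p = 0.0024). These calls were kept under every alternative run. In bulk RNA, fewer cells of a type and less RNA per cell cannot be told apart, here and for the genes that follow.

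Ccnd2 encodes cyclin D2, which pairs with the same kinases and takes the place of cyclin D1 in some tissues. It measured 0.234 and 0.240 FPKM with tamoxifen plus alpelisib, 0.920 and 0.405 with tamoxifen, 1.58 and 2.35 with estradiol, and 20.1 with vehicle. No 2 groups overlapped, and vehicle stood apart from all 6 treated libraries. Its lowest group mean, with tamoxifen plus alpelisib, was 84.6 times below its highest. Its log2 fold change against vehicle was -3.68 ± 0.25 with tamoxifen (adjusted p = 0.00021), -2.84 ± 0.25 with estradiol (adjusted p = 0.000873) and -4.09 ± 0.25 with tamoxifen plus alpelisib (adjusted p = 0.000171). With a pseudocount of 0.1, which weighs low values more, the tamoxifen and combination changes came to -4.81 and -5.90. Against estradiol, Ccnd2 fell by 1.25 ± 0.20 on the log2 scale with tamoxifen plus alpelisib (adjusted p = 0.00319). The fall of 0.84 ± 0.20 with tamoxifen alone (adjusted p = 0.0162) was lost without tamoxifen 2 (adjusted p = 0.0774) and without estradiol 2 (adjusted p = 0.0703), over a range of 0.0151 to 0.142 under the alternatives; it was also lost under median-of-ratios scaling (adjusted p = 0.0508) and quantile normalization (adjusted p = 0.142).

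The summed FPKM of stromal, smooth muscle and endothelial markers was highest in the same vehicle library as Ccnd1 and Ccnd2, although single genes such as Col1a1 (15.0 and 18.7 with estradiol, 7.52 with vehicle) were higher with estradiol. The 10 stromal markers summed to 120.3 to 128.5 FPKM with tamoxifen plus alpelisib, where Dpt and Pdgfrb were under 0.1, and to 54.5 to 55.3 with tamoxifen, 180.3 to 190.1 with estradiol and 266 with vehicle. Against vehicle, 8 of the 9 tested fell with tamoxifen plus alpelisib, 9 of 9 with tamoxifen, and 4 fell and 2 rose with estradiol. For these and the marker counts that follow, the shares of all genes called against vehicle serve as a background. They were 13.1% higher and 21.8% lower with tamoxifen plus alpelisib, 14.9% and 24.1% with tamoxifen, and 22.7% and 12.8% with estradiol. Smooth muscle markers summed to 17.0 to 18.1 FPKM with tamoxifen plus alpelisib, where Myh11 and Actg2 were under 0.1, 19.8 to 22.3 with tamoxifen, 6.14 to 9.14 with estradiol and 72.7 with vehicle. Of these 6 genes, 6 fell against vehicle with tamoxifen plus alpelisib, 5 with tamoxifen and 6 with estradiol. The 8 endothelial markers summed to 5.68 to 6.31 FPKM with tamoxifen plus alpelisib, where Cdh5, Tek, Emcn, Vwf and Tie1 were under 0.1, 3.84 to 3.97 with tamoxifen, where Tek and Vwf were, 8.99 to 10.7 with estradiol and 18.5 with vehicle. Of the 7 tested, 4 fell against vehicle with tamoxifen plus alpelisib, 6 with tamoxifen and 4 with estradiol. The 5 erythroid markers summed to 237 to 262 FPKM with tamoxifen plus alpelisib, 938 to 1238 with tamoxifen, 73.6 to 109 with estradiol and 30.4 with vehicle. Of 5 leukocyte markers tested, 1 was higher and 1 lower than vehicle with tamoxifen plus alpelisib, 2 were higher and 1 lower with tamoxifen, and 3 were higher and 0 lower with estradiol. Among them Itgam, an integrin of myeloid cells, had 31.7 and 33.0 FPKM with tamoxifen plus alpelisib, 51.5 and 56.0 with tamoxifen, 10.1 and 8.80 with estradiol, and 0.406 with vehicle. The part of these cells in the cyclin D1 and D2 values was not tested.

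Ccnd3 encodes cyclin D3, the remaining D-type cyclin. The libraries gave 25.3 and 26.5 FPKM with tamoxifen plus alpelisib, 23.0 and 28.2 with tamoxifen, 29.6 and 22.4 with estradiol, and 19.4 with vehicle. The vehicle library was the lowest, and the 3 treated groups overlapped one another. Against vehicle the log2 fold change was 0.40 ± 0.22 with tamoxifen plus alpelisib (adjusted p = 0.211), 0.38 ± 0.22 with tamoxifen (adjusted p = 0.225) and 0.39 ± 0.22 with estradiol (adjusted p = 0.212). Between treated groups it lay between -0.02 ± 0.18 and 0.02 ± 0.18, with a 95% interval of -0.41 to 0.46 for tamoxifen plus alpelisib against tamoxifen, and its sign depended on the library left out and on the scaling. Under median-of-ratios scaling Ccnd3 passed the test against vehicle with tamoxifen plus alpelisib (0.57, adjusted p = 0.0441, range 0.0173 to 0.462) and with tamoxifen (0.54, adjusted p = 0.0478, range 0.0478 to 0.496). With only the combination and vehicle libraries in the fit it also passed (0.40, adjusted p = 0.0173).

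The makeup of the cyclin D message also differed between groups. The 3 genes together summed to 34.8 and 37.8 FPKM with tamoxifen plus alpelisib, 33.6 and 36.4 with tamoxifen, 52.7 and 46.7 with estradiol, and 91.0 with vehicle. Ccnd3 made up 72.7% and 70.2% of that sum with tamoxifen plus alpelisib, 68.6% and 77.6% with tamoxifen, 56.2% and 48.0% with estradiol, and 21.4% with vehicle. Ccnd2 held 0.635% to 5.04% of it in the treated libraries and 22.0% in vehicle. These shares have no test of their own. The stacked plot of summed FPKM sets them beside the inhibitors.

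**Figure D2:**
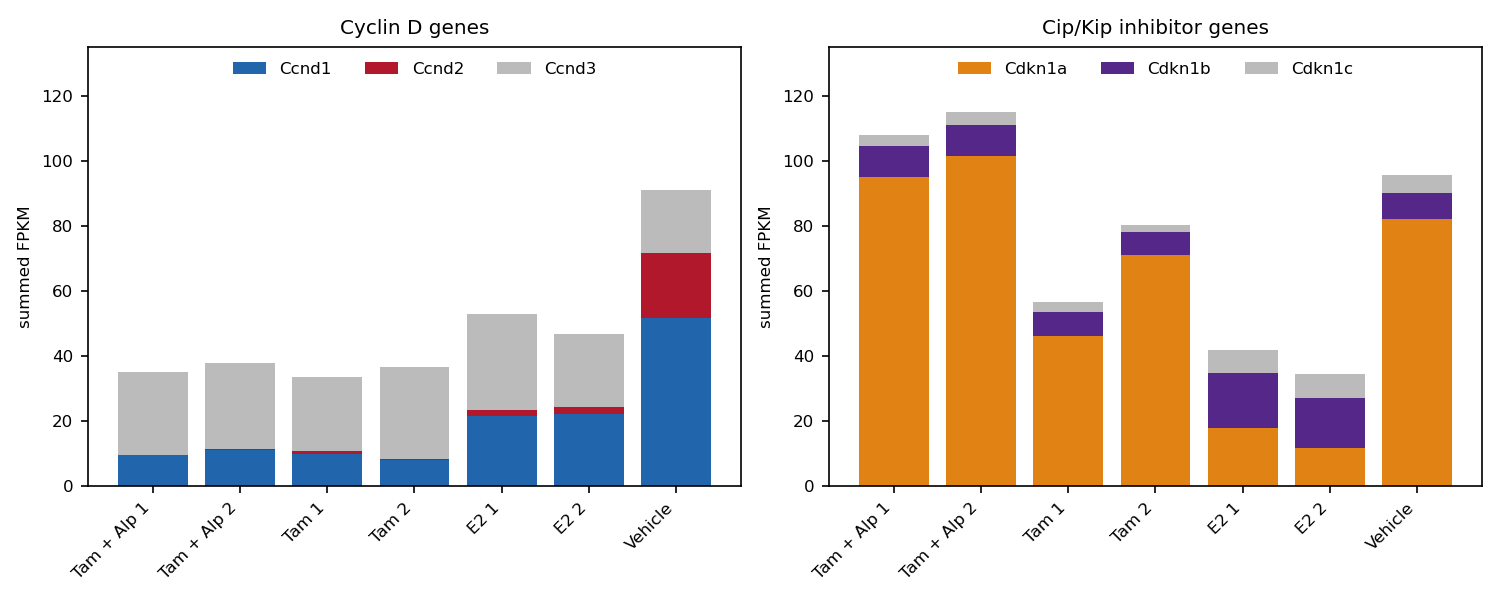
Summed FPKM (vertical axes, from 0) of the 3 cyclin D genes (left) and the 3 Cip/Kip inhibitor genes (right) in each of the 7 libraries; each bar is a library and its segments are the genes. Cyclin D3 is the largest cyclin D segment in all 6 treated libraries, and Cdkn1a is the largest inhibitor segment in every library but estradiol 2, where Cdkn1b is larger.

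Cdk4 encodes the main kinase partner of the D-type cyclins. It stood at 45.8 and 45.9 FPKM with tamoxifen plus alpelisib, 46.0 and 60.7 with tamoxifen, 148 and 111 with estradiol, and 86.2 with vehicle. Both estradiol libraries lay above vehicle and all 4 libraries with tamoxifen below it; the alpelisib libraries and tamoxifen 1 were almost level. Tamoxifen gave 53.3 ± 10.3 FPKM and estradiol 129 ± 26.2 FPKM, a log2 fold change of -1.26 ± 0.21 (adjusted p = 0.0043). Tamoxifen plus alpelisib gave 45.9 ± 0.0497 FPKM, a log2 fold change of -1.46 ± 0.21 against estradiol (adjusted p = 0.00203). It was also lower than vehicle (log2 fold change -0.90 ± 0.26, adjusted p = 0.0383), a call lost without combination library 1 (adjusted p = 0.161), without combination library 2 (adjusted p = 0.156) and with no filter on low values (adjusted p = 0.0701), over a range of 0.00194 to 0.161. Against vehicle the tamoxifen change was -0.70 ± 0.26 (adjusted p = 0.0751), which passed without estradiol 1 (adjusted p = 0.0478), without estradiol 2 (adjusted p = 0.0492) and after quantile normalization (adjusted p = 0.0127), over a range of 0.0127 to 0.213. The estradiol change against vehicle was 0.56 ± 0.26 (adjusted p = 0.134), and 0.88 after quantile normalization (adjusted p = 0.00665, range 0.00665 to 0.36).

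The promoter of Cdk4 is shown because it holds 4 copies of the E-box CACGTG, the sequence that Myc binds with its partner Max, and Myc was among the pathway genes called. RefSeq promoter windows on GRCm38.p6 were found for 6 of the 10 genes, with 8 start sites; the 250 bases before the start site were read on the gene's strand and searched on both strands. The window lies at chr10:127063285-127063534 on the plus strand, and capitals mark the E-boxes, which start 172, 118, 98 and 11 bases before the start site.
Cdk4: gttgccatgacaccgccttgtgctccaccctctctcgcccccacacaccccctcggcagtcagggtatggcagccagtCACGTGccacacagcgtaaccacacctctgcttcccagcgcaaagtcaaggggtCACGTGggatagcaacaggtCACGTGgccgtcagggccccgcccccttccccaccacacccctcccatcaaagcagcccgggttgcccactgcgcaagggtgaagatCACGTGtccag
An E-box was present in 6.02% of 32851 promoter windows of the same length, and 4 or more in 7 of them, or 0.0213%. A single E-box also lay in the Cdk6 window, 220 bases before its start site. Myc itself had 15.3 and 18.5 FPKM with tamoxifen plus alpelisib, 2.64 and 5.16 with tamoxifen, 15.7 and 11.5 with estradiol, and 45.2 with vehicle. Myc was thus highest in vehicle and Cdk4 with estradiol, and the part of Myc in the Cdk4 values was not tested.

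Cdk6 encodes the second kinase of the D-type cyclins and was low throughout. It had 0.890 and 0.758 FPKM with tamoxifen plus alpelisib, 0.482 and 0.613 with tamoxifen, 1.53 and 2.88 with estradiol, and 1.12 with vehicle. No groups overlapped, and the estradiol libraries, the highest, differed most from each other. Cdk4 exceeded Cdk6 by 51.5 and 60.5 times with tamoxifen plus alpelisib, 95.5 and 99.0 with tamoxifen, 96.7 and 38.4 with estradiol, and 76.7 with vehicle. Against estradiol, Cdk6 fell by 1.02 ± 0.22 on the log2 scale with tamoxifen (adjusted p = 0.0101), a call lost without tamoxifen 1 (adjusted p = 0.0524) and after quantile normalization (adjusted p = 0.0569), over a range of 0.00309 to 0.0569. For tamoxifen plus alpelisib the fall was 0.78 ± 0.22 (adjusted p = 0.0232), which was lost without combination library 1 (adjusted p = 0.0835) or 2 (adjusted p = 0.114), under median-of-ratios scaling (adjusted p = 0.0644), after quantile normalization (adjusted p = 0.165) and with no filter (adjusted p = 0.0621), over a range of 0.00375 to 0.165. Relative to vehicle, its log2 fold change was -0.22 with tamoxifen plus alpelisib (adjusted p = 0.557), -0.46 ± 0.26 with tamoxifen (adjusted p = 0.216) and 0.56 ± 0.26 with estradiol (adjusted p = 0.145). The tamoxifen value passed without estradiol 1 (adjusted p = 0.0404) or 2 (adjusted p = 0.0374), over a range of 0.0374 to 0.479, and the estradiol value came to 0.87 without estradiol 1 (adjusted p = 0.0135, range 0.0135 to 0.33).

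Ccne1 encodes cyclin E1, the activator of CDK2 at the entry into DNA synthesis. Its FPKM was 0.756 and 0.654 with tamoxifen plus alpelisib, 0.880 and 0.807 with tamoxifen, 4.87 and 4.39 with estradiol, and 0.466 with vehicle. Only the estradiol libraries exceeded 1 FPKM, and the other 5 lay within 0.466 to 0.880. Estradiol averaged 4.63 ± 0.338 FPKM, 9.94 times the vehicle level. The log2 fold change was 1.94 ± 0.15 (adjusted p = 0.000729), and it came to 3.06 with a pseudocount of 0.1. Tamoxifen was lower than estradiol (log2 fold change -1.61 ± 0.13, adjusted p = 0.000328), as was tamoxifen plus alpelisib (log2 fold change -1.72 ± 0.13, adjusted p = 0.000236). Against vehicle, the log2 fold change was 0.22 with tamoxifen plus alpelisib (adjusted p = 0.321) and 0.33 ± 0.15 with tamoxifen (adjusted p = 0.14).

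Ccne2 encodes cyclin E2, the close relative of cyclin E1 with the same kinase partner. Libraries with tamoxifen plus alpelisib had 0.0186 and 0.0600 FPKM, those with tamoxifen 0.976 and 0.414, those with estradiol 1.75 and 1.88, and vehicle had 0.267. No groups overlapped, and the alpelisib libraries were the lowest. At the roughly estimated depths and a transcript of 3.006 kb, their values correspond to about 0.956 and 2.84 fragments. The tamoxifen values correspond to 51.4 and 19.9 and the vehicle value to 14.7. No ratio of FPKM to the alpelisib libraries is given, since counting error alone is large there. The log2 fold changes below that involve these libraries rest on those few fragments. This weighs most on the value with a pseudocount of 0.1. With estradiol Ccne2 rose by 1.15 ± 0.22 on the log2 scale against vehicle (adjusted p = 0.0108), or 2.38 with a pseudocount of 0.1, a call lost with only the estradiol and vehicle libraries in the fit (adjusted p = 0.0504, range 0.00894 to 0.0504). Tamoxifen was lower than estradiol (log2 fold change -0.75 ± 0.18, adjusted p = 0.0161), which was lost without tamoxifen 2 (adjusted p = 0.067), without estradiol 2 (adjusted p = 0.0591), under median-of-ratios scaling (adjusted p = 0.0569) and after quantile normalization (adjusted p = 0.174), over a range of 0.0117 to 0.174. Tamoxifen plus alpelisib was lower than estradiol (log2 fold change -1.44 ± 0.18, adjusted p = 0.0013). Against tamoxifen alone the combination had -0.69 ± 0.18 (adjusted p = 0.062, 95% interval -1.13 to -0.25), short of the threshold. That value passed without tamoxifen 2 (-0.93, adjusted p = 0.046), with a pseudocount of 0.1 (-2.43, adjusted p = 0.0248) and after quantile normalization (-0.81, adjusted p = 0.0436), over a range of 0.0248 to 0.302. Relative to vehicle, the log2 fold change was -0.29 with tamoxifen plus alpelisib (adjusted p = 0.362) and 0.40 ± 0.22 with tamoxifen (adjusted p = 0.202).

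Both cyclin E genes together summed to 0.775 and 0.714 FPKM with tamoxifen plus alpelisib, 1.86 and 1.22 with tamoxifen, 6.62 and 6.27 with estradiol, and 0.733 with vehicle. The cyclin D and cyclin E sums therefore had different orders: vehicle held the highest cyclin D sum and nearly the lowest cyclin E sum.

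Cdkn1a encodes p21, the Cip/Kip inhibitor best known as a target of p53. It reached 95.1 and 101.3 FPKM with tamoxifen plus alpelisib, 45.9 and 70.9 with tamoxifen, 17.7 and 11.7 with estradiol, and 82.0 with vehicle. Both estradiol libraries were below all others, and the alpelisib libraries were the highest. Estradiol averaged 14.7 ± 4.27 FPKM, 5.57 times lower than vehicle, a log2 fold change of -2.43 ± 0.33 (adjusted p = 0.00346). Tamoxifen, with 58.4 ± 17.7 FPKM, was higher than estradiol by 1.91 ± 0.27 (adjusted p = 0.00233), and tamoxifen plus alpelisib, with 98.2 ± 4.40 FPKM, by 2.69 ± 0.27 (adjusted p = 0.000583). All 3 calls were kept under every alternative run. Against vehicle, the change was 0.26 ± 0.33 with tamoxifen plus alpelisib (adjusted p = 0.583) and -0.51 ± 0.33 with tamoxifen (adjusted p = 0.26). Alpelisib on top of tamoxifen gave 0.77 ± 0.27 (adjusted p = 0.119, 95% interval 0.12 to 1.42), higher in 2 of 2 libraries and not past the threshold.

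RefSeq lists 2 start sites for Cdkn1a, 2790 bases apart. The window before the first is shown because it holds the paired p53 half-site CATGNNNNNNCATG, in capitals, 48 bases before the start site, at chr17:29090729-29090978 on the plus strand.
Cdkn1a, first start site: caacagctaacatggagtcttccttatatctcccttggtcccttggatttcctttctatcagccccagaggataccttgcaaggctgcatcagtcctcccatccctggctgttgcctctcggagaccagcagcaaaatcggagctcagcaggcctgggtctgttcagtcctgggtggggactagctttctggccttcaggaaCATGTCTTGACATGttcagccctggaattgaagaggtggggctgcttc
This pair was present in 161 of the 32851 windows, or 0.49%. The window of the second start site held none and had 2 GC boxes (GGGCGG). The gene for p53, Trp53, had 20.2 and 23.9 FPKM with tamoxifen plus alpelisib, 23.0 and 26.6 with tamoxifen, 56.3 and 54.0 with estradiol, and 29.3 with vehicle, so its RNA was highest in the libraries where Cdkn1a was lowest. RNA levels do not measure the p53 protein or its activity, whose part in the Cdkn1a values was not tested.

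Cdkn1b encodes p27, which holds CDK2 inactive in resting cells. Its values were 9.39 and 9.76 FPKM with tamoxifen plus alpelisib, 7.53 and 7.03 with tamoxifen, 17.0 and 15.2 with estradiol, and 8.08 with vehicle. The estradiol libraries stood above the other 5, which lay within 7.03 to 9.76. With estradiol the mean was 16.1 ± 1.28 FPKM, 1.99 times the vehicle level, a log2 fold change of 0.91 ± 0.15 (adjusted p = 0.0071), lost with only those 2 groups in the fit (adjusted p = 0.0742, range 0.00668 to 0.0742). Tamoxifen gave 7.28 ± 0.354 FPKM and was lower than estradiol (log2 fold change -1.04 ± 0.13, adjusted p = 0.00135). Tamoxifen plus alpelisib gave 9.58 ± 0.260 FPKM and was lower than estradiol (log2 fold change -0.69 ± 0.13, adjusted p = 0.00498), a call lost without combination library 1 (adjusted p = 0.0554) and under median-of-ratios scaling (adjusted p = 0.0507), over a range of 0.00467 to 0.0554. Alpelisib with tamoxifen against tamoxifen had 0.35 ± 0.13 (adjusted p = 0.126, 95% interval 0.05 to 0.66). Against vehicle, the values were 0.22 ± 0.15 with tamoxifen plus alpelisib (adjusted p = 0.315) and -0.13 ± 0.15 with tamoxifen (adjusted p = 0.531), and the sign with tamoxifen turned to 0.02 under median-of-ratios scaling.

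Ccne1 and Cdkn1b, a cyclin and an inhibitor of the same kinase, had the same 2 libraries highest, and over the 7 libraries their log2 values had a Pearson r of 0.92, given as a description without a test since the libraries of a group share a treatment. The promoter windows of the pair are set side by side for that reason, with GC boxes (GGGCGG, on either strand), the sequence bound by Sp1 and its relatives, in capitals. The Ccne1 window lies at chr7:38107491-38107740 on the minus strand and has 4, starting 236, 110, 62 and 49 bases before the start site; the Cdkn1b window lies at chr6:134920151-134920400 on the plus strand and has 1, at 61 bases.
Ccne1: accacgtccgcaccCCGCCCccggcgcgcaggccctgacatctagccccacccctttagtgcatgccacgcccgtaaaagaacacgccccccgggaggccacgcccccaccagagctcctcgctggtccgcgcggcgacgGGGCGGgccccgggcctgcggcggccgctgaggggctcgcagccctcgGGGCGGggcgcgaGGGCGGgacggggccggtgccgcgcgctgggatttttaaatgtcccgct
Cdkn1b: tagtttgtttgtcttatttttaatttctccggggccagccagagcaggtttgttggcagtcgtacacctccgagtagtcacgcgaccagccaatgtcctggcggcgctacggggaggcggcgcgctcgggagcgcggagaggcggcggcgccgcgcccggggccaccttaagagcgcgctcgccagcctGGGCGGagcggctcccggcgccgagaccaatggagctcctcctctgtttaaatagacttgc
At least 1 GC box was present in 32.7% of all windows and 4 or more in 4.09%. GC boxes also lay in windows of Ccnd3, Cdk4 and Cdkn1a, whose r with Ccne1 was 0.29, 0.81 and -0.95. They were thus not particular to this pair, and their part in its pattern was not tested. The E2F sites TTTCCCGC and TTTGGCGC (in 1.3% of all windows), the AP-1 site TGANTCA (6.75%) and the cyclic AMP response element TGACGTCA (1.55%) were in none of the 8 windows of these genes. The FOXO site TGTTTAC (3.17%) was in 1, the first start site of Ccnd3, 243 bases before it. No match overlapped another.

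Cdkn1c encodes p57, the imprinted member of the inhibitor family. It had 3.44 and 3.94 FPKM with tamoxifen plus alpelisib, 3.16 and 2.16 with tamoxifen, 7.14 and 7.45 with estradiol, and 5.55 with vehicle. All 4 libraries with tamoxifen lay below vehicle, and both estradiol libraries above it. Tamoxifen averaged 2.66 ± 0.705 FPKM, 2.09 times lower than vehicle, a log2 fold change of -0.85 ± 0.21 (adjusted p = 0.0194). That call was lost without tamoxifen 2 (-0.66, adjusted p = 0.0501) and with only those 2 groups in the fit (adjusted p = 0.0654), over a range of 0.0153 to 0.0654. Tamoxifen was lower than estradiol (log2 fold change -1.19 ± 0.17, adjusted p = 0.00235). Tamoxifen plus alpelisib was lower than estradiol (log2 fold change -0.83 ± 0.17, adjusted p = 0.00739), which was lost without combination library 1 (adjusted p = 0.0633), under median-of-ratios scaling (adjusted p = 0.0528) and after quantile normalization (adjusted p = 0.0577), over a range of 0.00494 to 0.0633. The estradiol mean of 7.30 ± 0.216 FPKM had a log2 fold change of 0.34 ± 0.21 against vehicle (adjusted p = 0.239). For tamoxifen plus alpelisib against vehicle it was -0.49 ± 0.21 (adjusted p = 0.116), which passed with only those 2 groups in the fit (adjusted p = 0.0314, range 0.0314 to 0.363).

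The 3 inhibitors together summed to 107.9 and 115 FPKM with tamoxifen plus alpelisib, 56.6 and 80.1 with tamoxifen, 41.8 and 34.3 with estradiol, and 95.6 with vehicle. Cdkn1a made up 88.1% of that sum in both alpelisib libraries, 81.1% and 88.5% with tamoxifen, 42.3% and 34.1% with estradiol, and 85.7% with vehicle. Estradiol libraries thus had the smallest inhibitor sum although Cdkn1b and Cdkn1c were at their highest there. Set against the cyclin D sum, the inhibitor sum was 3.10 and 3.04 times as large with tamoxifen plus alpelisib, 1.69 and 2.20 with tamoxifen, 0.794 and 0.734 with estradiol, and 1.05 with vehicle. Groups did not overlap in this ratio, which has no test of its own and compares RNA, not protein.

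Read by comparison, with tamoxifen against vehicle 0 of the 10 genes were called higher and 3 lower, where 14.9% of all genes tested were higher and 24.1% lower. The members' median log2 fold change was -0.49, against -0.12 over all genes. Leaving out either estradiol library, neither of which is in this comparison, raised the count to 5 by adding Cdk4 and Cdk6. With tamoxifen plus alpelisib against vehicle 0 were higher and 3 lower, against 13.1% and 21.8% of all genes, with a median of -0.25 against -0.15; the count was 5 with only these 2 groups in the fit. With estradiol against vehicle 3 were higher and 3 lower, against 22.7% and 12.8% of all genes, with a median of 0.48 against 0.12. Of the higher genes, Ccne1 and Ccne2 passed the filter only through the estradiol libraries, so a call of lower was hardly possible for them. In these 3 comparisons, which share the vehicle library, the groups did not overlap for any of the 10 genes. With a single vehicle value on 1 side, the same held for 91.9% of all genes with tamoxifen plus alpelisib, 87.1% with tamoxifen and 83.2% with estradiol.

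Against estradiol most of the genes were lower. With tamoxifen 1 gene was higher and 8 lower, where 12.3% of all genes were higher and 36.2% lower, and the median was -1.03 against -0.26 over all genes. The combination likewise had 1 higher and 8 lower, against 15.7% and 37.5% of all genes, with a median of -0.93 against -0.26. Cdkn1a was the gene that was higher and Ccnd3 the one not called in each. Ccne1 and Ccne2, among the lower genes in each, passed the filter only through the estradiol libraries. A call of higher was hardly possible for them, which limits how these counts and medians compare with all genes. Median-of-ratios scaling gave 1 higher and 6 lower with tamoxifen and 1 higher and 5 lower with tamoxifen plus alpelisib. These comparisons share the estradiol libraries, so their counts are not independent.

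Between tamoxifen plus alpelisib and tamoxifen, limma called 0 genes higher and 0 lower, where 6.93% and 4.81% of all genes were. At an unadjusted p under 0.05 there were 3, Ccne2, Cdkn1a and Cdkn1b. Groups did not overlap for 8 of the 10, the exceptions being Ccnd1 and Ccnd3, nor for 64.5% of all genes. The 95% intervals of the log2 fold change of the other cyclins and kinases were -0.17 to 0.58 for Ccnd1, -0.90 to 0.08 for Ccnd2, -0.42 to 0.19 for Ccne1, -0.71 to 0.31 for Cdk4 and -0.28 to 0.76 for Cdk6, and -0.04 to 0.77 for the inhibitor Cdkn1c. With 2 libraries a group, changes within these intervals could not be told from none. The plot of fold changes sets all 6 comparisons side by side.

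**Figure D3:**
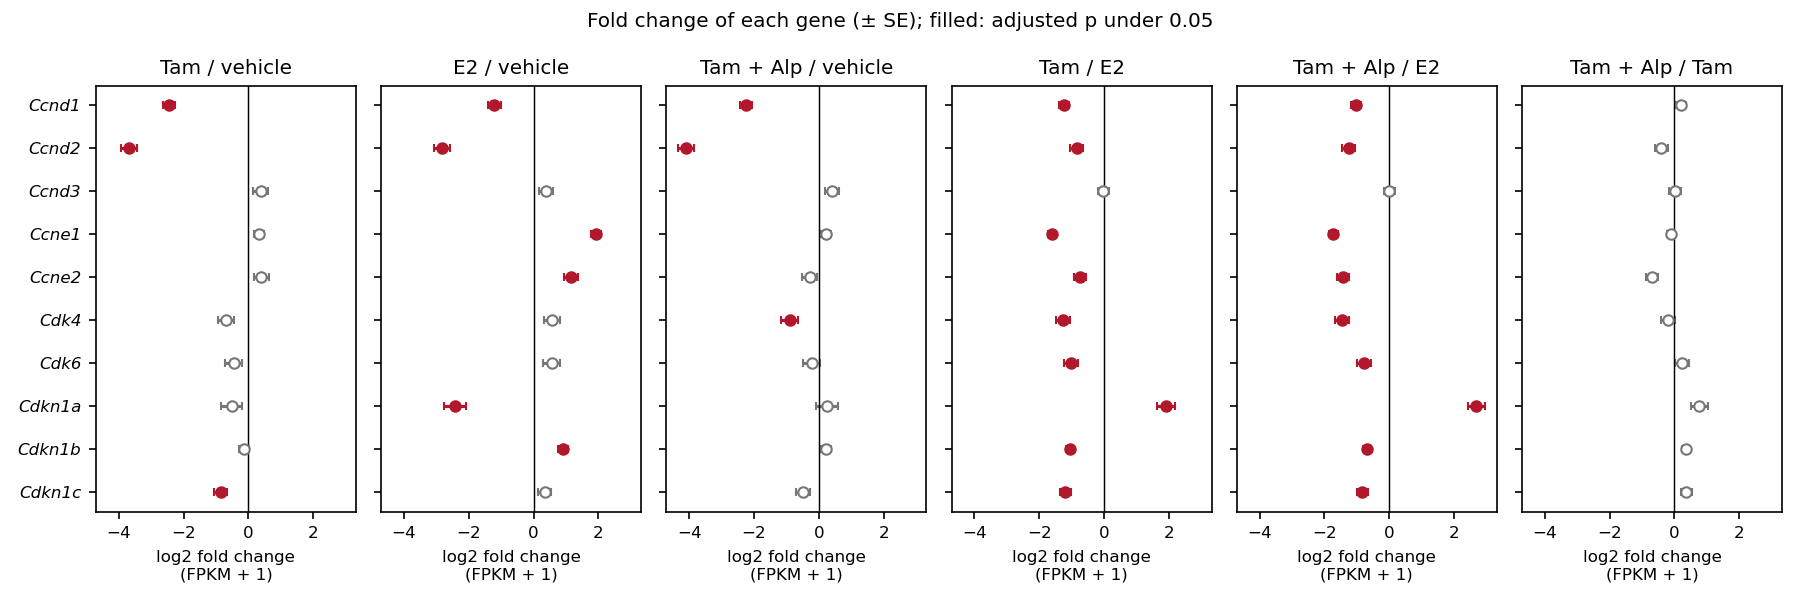
Log2 fold change of FPKM + 1 (horizontal axes) of each of the 10 genes in the 6 comparisons; points are estimates, bars are ± SE, and filled points have an adjusted p under 0.05. Against estradiol, Cdkn1a is to the right of 0 and 8 genes to the left, while the panel of tamoxifen plus alpelisib against tamoxifen has no filled point. Ccne1 and Ccne2 passed the filter only through the estradiol libraries.

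Other genes of the G1/S pathway were taken from 6 lists with 42 genes, all of them tested. With tamoxifen against vehicle 4 of the 42 were higher and 8 lower, where 14.9% and 24.1% of all genes were, and their median log2 fold change was -0.03, against -0.12 over all genes. Myc, the transcription factor named above, fell by 3.29 ± 0.34 on the log2 scale (adjusted p = 0.000949), with a mean of 3.90 FPKM against 45.2 with vehicle. The pocket protein Rbl2, a relative of the retinoblastoma protein found in resting cells, fell by 1.29 ± 0.18, and Foxo1, a factor that PI3K signalling keeps out of the nucleus, by 1.03 ± 0.16. Cdc25a, the phosphatase that activates CDK2, rose by 0.96 ± 0.15. Adjusted p lay between 0.00291 and 0.00377 for these 3.

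With estradiol against vehicle 15 of the 42 rose and 2 fell, beside 22.7% and 12.8% of all genes, with a median of 0.34 against 0.12. Cyclin A2 (Ccna2), the partner of CDK2 during DNA synthesis, had 17.6 FPKM against 1.30 with vehicle, a log2 fold change of 3.01 ± 0.15 (adjusted p = 0.000421). Cdc25a rose by 1.88 ± 0.15, the repressor E2f8 by 1.86 ± 0.16, and the progesterone receptor gene Pgr, a classical estrogen target, by 1.28 ± 0.15, with adjusted p from 0.000692 to 0.00204. In the list of E2F and DP factors 6 of 10 rose and 0 fell. Of this list E2f2, E2f3, E2f7 and E2f8 reached the filter of 1 FPKM only with estradiol, as did Skp2 of another list. They were tested because they were high there, so a call of lower was hardly possible for them. Of the 4 INK4 inhibitors of CDK4 and CDK6, 0 were called by limma with estradiol against vehicle and 0 had an unadjusted p under 0.05. The other comparisons each had INK4 calls. With tamoxifen 1 was lower against vehicle and 1 against estradiol. With tamoxifen plus alpelisib 1 was higher against tamoxifen. The combination also had 1 higher and 1 lower against vehicle, and the same counts against estradiol. The 8 genes of cycling cells had 7 higher and 0 lower with estradiol, 3 higher and 2 lower with tamoxifen, and 1 higher and 2 lower with tamoxifen plus alpelisib, each against vehicle. Mki67, a marker of cycling cells, had 0.911 and 1.13 FPKM with tamoxifen plus alpelisib, 3.65 and 2.85 with tamoxifen, 16.6 and 30.4 with estradiol, and 1.17 with vehicle, so the estradiol libraries were highest, as for both cyclin E genes. The part of cycling cells in the cyclin E values was not tested.

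With tamoxifen plus alpelisib against tamoxifen 4 of the 42 were higher and 4 lower, beside 6.93% and 4.81% of all genes, with a median of -0.12 against -0.03. Without either combination library most calls over all genes were lost in this comparison, so a call lost there is not particular to a gene. Foxo1 had 14.1 FPKM against 5.88 with tamoxifen alone, a log2 fold change of 1.13 ± 0.13 (adjusted p = 0.00644). That call was lost without either combination library, with changes of 1.15 and 1.12. Myc had 16.9 against 3.90 FPKM, a change of 1.91 ± 0.28 (adjusted p = 0.0121). Its call was lost without either combination library (2.04 and 1.78), without tamoxifen 1 (1.53) and with no filter (adjusted p = 0.0537). Rbl2 rose by 0.79 ± 0.15 (adjusted p = 0.0255). The Rbl2 call was lost on leaving out any 1 of the 4 libraries compared (0.70 to 0.87) and with no filter (adjusted p = 0.0603). Ccna2 fell by 0.94 ± 0.13 (adjusted p = 0.00935), a call lost without either combination library (-0.90 and -0.99) and without tamoxifen 1 (-0.92). Of the cycling cell genes 5 of 8 fell and 0 rose. Among the 10 members there were 0 calls, a count close to those shares of all genes.

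Against estradiol, 1 of the 42 genes was higher and 26 lower with tamoxifen (12.3% and 36.2% of all genes), with a median of -0.65 against -0.26, and 4 were higher and 23 lower with tamoxifen plus alpelisib (15.7% and 37.5% of all genes), with a median of -0.54 against -0.26. With tamoxifen plus alpelisib against vehicle, 2 were higher and 5 lower (13.1% and 21.8% of all genes), with a median of -0.19 against -0.15. Of these genes E2f2, E2f3, E2f7, E2f8 and Skp2 were tested only because of their estradiol values. The plot of pathway genes shows all 42 list by list.

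**Figure D4:**
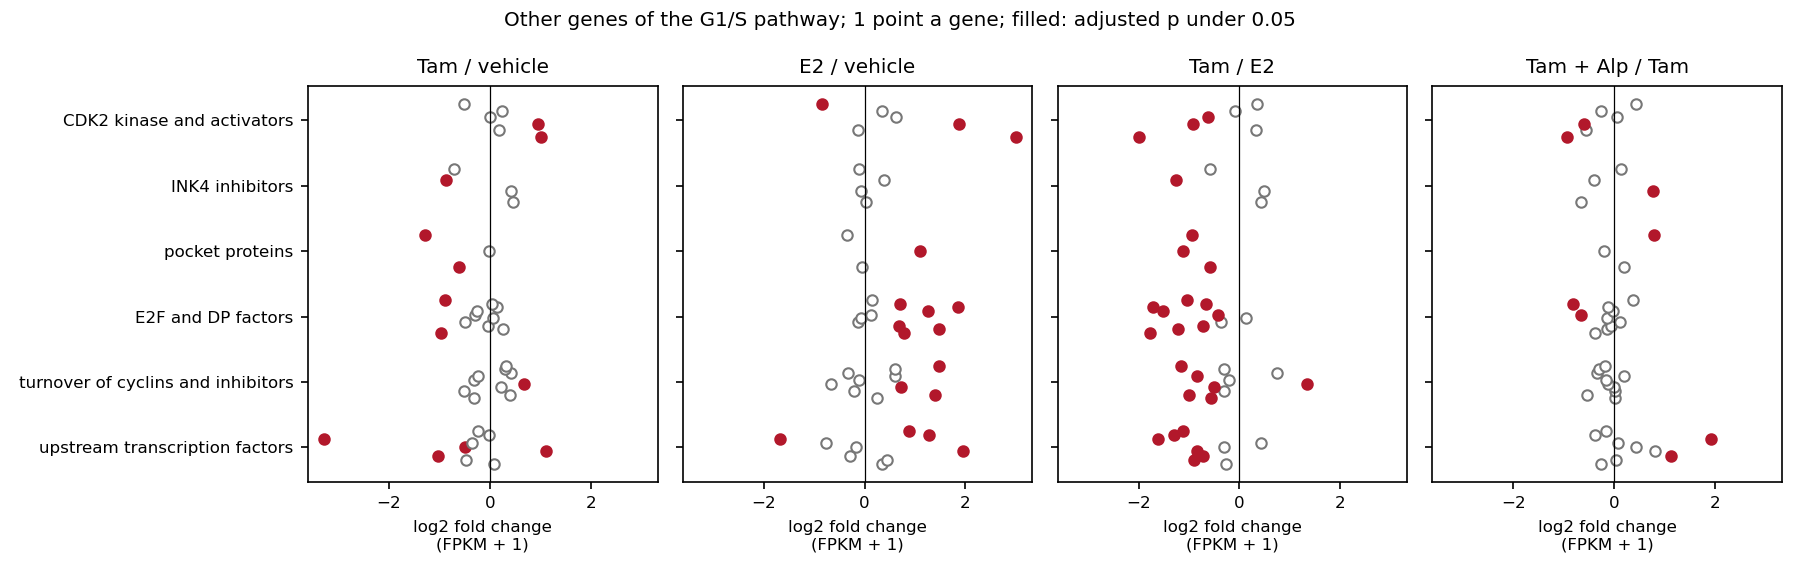
Log2 fold change of FPKM + 1 (horizontal axes) of the 42 other G1/S genes, 1 point a gene, by list (rows) in 4 comparisons; filled points have an adjusted p under 0.05. In the E2F and DP row 6 of 10 points are filled to the right with estradiol against vehicle and 8 to the left with tamoxifen against estradiol. E2f2, E2f3, E2f7 and E2f8 of that row passed the filter only through the estradiol libraries.

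Genes whose pattern over the 7 libraries was most like a member's were sought among 6627 genes with a mean of at least 5 FPKM, by Pearson r of log2(FPKM + 1), as a description without a test; each value is the highest of many, over few libraries. For Ccnd1 they were Gmpr (0.994), Kank1 (0.989) and Actn1 (0.987), and for Ccnd2 Nfil3 (0.989), Trappc10 (0.983) and Pla2g7 (0.983). For Ccne1 the histone methyltransferase gene Ezh2 came first (0.998), before Napepld (0.997) and St6gal1 (0.995), and Ccne2 was nearest to Rbm45 (0.994), Gpat4 (0.993) and Hspa4 (0.992). Cdk4 was nearest to Dcakd (0.997), Cdc16 (0.994) and Dap3 (0.993), and Cdk6 to WHSC1L1 (0.986), Ube3b (0.981) and Exoc6b (0.980). Cdkn1a was nearest to Osgin1 (0.996), Tgoln1 (0.994) and Uap1 (0.992). For Cdkn1b the list was Sparc (0.987), the CDK phosphatase gene Cdc25b (0.985) and St3gal1 (0.985), and for Cdkn1c Agap1, Pdcd4 (both 0.987) and Zfp91 (0.986). Within the 10 members the highest r was 0.94, between Ccnd1 and Ccnd2. The lowest were -0.97, between Ccne2 and Cdkn1a, and -0.95, between Ccne1 and Cdkn1a, both larger in size.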

How the data were processed

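RNA libraries were prepared with a TruSeq kit, per the labels' protocols. CASAVA, Bowtie and Cufflinks are named without versions in the submitters' processing notes, and the only build named there is hg19 although the samples are mouse; positions are therefore not taken from the files. Ignoring case, 23697 symbols were found among the mouse genes of GENCODE or RefSeq. The authors deposited 1 table of 24353 genes in 7 columns. The unit of the deposited table was taken to be FPKM because its values are fractional and Cufflinks is named, although its name speaks of counts. How reads of overlapping, antisense or near-identical genes were assigned was not given there.

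The 10 genes and all lists were chosen with earlier results of these data known. Genes with at least 1 FPKM in at least 1 library (12314) were fitted as log2(FPKM + 1) with limma-trend, with 4 group means over all 7 libraries, 3 residual degrees of freedom and a prior of 3.27. The vehicle group, with 1 library, is assumed to vary like the others, so p-values against it rest on that. Replicates are separate mice per their titles. Benjamini-Hochberg adjustment covered all genes of a comparison, with a threshold of 0.05. The script was tested on simulated data. Alternatives were median-of-ratios scaling, quantile normalization, no filter, a filter of at least 2 libraries, a pseudocount of 0.1, robust empirical Bayes, only the compared groups, each library left out in turn and a replicate block. Pathway genes were named as up to 4 called genes of lowest p over the lists in each of 3 comparisons (tamoxifen against vehicle, tamoxifen plus alpelisib against tamoxifen, estradiol against vehicle); similar genes as the 3 of highest r for each member called in at least 2 comparisons. Trp53, Mki67 and repeats of Myc were added as context for members. Depth was estimated from 3093 genes with 1 transcript, within a range of depths fixed beforehand. Promoter windows are from RefSeq on GRCm38.p6. Software was Python 3.11.15 (pandas 2.3.3, numpy 2.4.6, matplotlib 3.10.9, scipy 1.17.1) and limma 3.58.1 under R 4.3.3.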

Additional observations from a re-analysis of the deposited data

How the results depend on the processing

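Over all alternatives, 780 of 832 recomputed fold changes of single genes kept their direction and their side of the threshold, 27 lost and 14 gained a call, and 11 changed sign, none of them called. Many alternatives leave the fold change itself as it was. These are the other filters, robust empirical Bayes, only the compared groups, the replicate block and leaving out a library of another group. In them only the side of the threshold could change, so the count of 780 overstates how stable the direction is. Cdkn1b turned to 0.019 with tamoxifen against vehicle under median-of-ratios scaling. The other sign changes were those of Ccnd3 between treated groups. With tamoxifen plus alpelisib against tamoxifen, Ccnd3 came to -0.037 after quantile normalization, and to between -0.12 (without tamoxifen 1) and 0.16 (without tamoxifen 2) with a library left out. With tamoxifen against estradiol it came to 0.31 under median-of-ratios scaling, 0.014 after quantile normalization, and -0.21 (without estradiol 2) to 0.18 (without estradiol 1). With tamoxifen plus alpelisib against estradiol it came to -0.023 after quantile normalization, and -0.19 (without estradiol 2) to 0.20 (without estradiol 1). Counts of called genes moved by over 1.5 times in 3 comparisons. For tamoxifen against vehicle, 3 were called, and 2 to 5 with a library left out. For tamoxifen plus alpelisib against tamoxifen, 0 were called, 1 after quantile normalization, 1 with a pseudocount of 0.1, and 0 to 1 with a library left out. For tamoxifen plus alpelisib against vehicle, 3 were called, 5 with only these groups in the fit, and 2 to 3 with a library left out. The cause was not tested. Without either combination library, most calls over all genes were also lost for tamoxifen plus alpelisib against tamoxifen. Member counts in those fits therefore cannot show stability. Deviations of same-numbered libraries had correlations of -0.40, -0.18 and 0.27. With 2 libraries a group, these cannot settle whether the mouse numbers pair the groups. With the replicate block the counts were 0 for tamoxifen plus alpelisib against tamoxifen, 9 for tamoxifen against estradiol and 9 for tamoxifen plus alpelisib against estradiol, as without it, and the call of the pathway gene Rbl2 in the first was lost (adjusted p = 0.063); the vehicle library carries no number, so it entered no block. At the roughly estimated depths, Ccne2 in the alpelisib libraries rests on under 3 fragments each. In the comparisons against vehicle the single vehicle library cannot be left out.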
